A study of Mus musculus with 12 samples.

Results

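The genes described here encode the machines that move, eject or exchange nucleosomes and the bromodomain proteins that read acetylated histones. They were chosen by name: every gene whose symbol begins with Smarca to Smarce, Arid1 to Arid5, Ino80, Brd1 to Brd9, Baz1 or Baz2, Actl6 or Ep400, or is Chd1 to Chd9. This gave 54 of the 24421 genes in the table. The rule uses names alone, but it was set with earlier results of these data known. An adjusted p-value was given for 49 of them. The other 5 (Actl6b, Arid3c, Brd3os, Chd5 and Smarca1) had almost no reads. For 3 members the name stands for a transcript that is no remodeller subunit: Ino80dos and Brd3os lie beside Ino80d and Brd3 without overlapping them, and Smarca5-ps is a pseudogene whose reads may be shared with Smarca5.

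Chromatin remodellers are built around an ATPase of the SNF2 type that pulls DNA along the histone octamer. SWI/SNF complexes (BAF and PBAF) slide and evict nucleosomes at enhancers and promoters, ISWI complexes space nucleosomes evenly, CHD enzymes act in transcription and in the NuRD deacetylase complex, and the INO80, SRCAP and TIP60 complexes exchange histone variants. BET proteins bind acetylated histones through paired bromodomains and bring elongation factors to genes. Linker histone H1 sits on the nucleosome where DNA enters and leaves, and in biochemical work it limits the access of remodellers to the nucleosome.

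The study asks what loss of H1 does to lymphocytes. CD8 and CD4 T cells and B cells were taken by cell sorting from spleens of C57BL/6 mice, and their polyadenylated RNA was sequenced with paired ends from 12 samples in 6 groups of 2 animals. The 2 genotypes are named WT and cTKO in the labels; the cTKO animals lack H1 genes, and the labels used here do not name the alleles, a Cre driver or the ages. Only the CD8 T cell comparison was analysed here, with 1 female and 1 male animal per genotype. The p-values thus rest on 2 animals per genotype, and the spread within a genotype includes the difference between the sexes.

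Whole read numbers of each library were recovered from the authors' table for 17942 of 17954 genes with a mean normalized count above 0 and below 10000, and for all 54 members. The recovered genes held 9396431 to 15207014 reads per library. The libraries are called the larger and the smaller of each genotype. The larger ones held most Xist reads (479 against 2 in WT, 4871 against 28 in cTKO) and go with the female animals, so library size and sex cannot be told apart. Hist1h1c (41 and 56 reads in the larger and smaller WT library), Hist1h1d (5 and 11) and Hist1h1e (64 and 112) had 0 reads in both cTKO libraries, and from these genes the direction of all fold changes was read. None of the 7 CD8 T cell markers found was called. Markers of some other cells moved with genotype: the summed level of 6 NK cell markers was 1168 and 1610 in WT and 7408 and 7214 in cTKO (5 of 6 called higher), and that of 6 myeloid markers was 95.5 and 103 against 2432 and 819 (2 of 4 tested called higher). The sum of 8 B cell markers was 1552 and 1126 against 943 and 269.6 (1 of 5 tested called lower). The sums overlapped for 7 cell cycle genes (6158 and 4784 against 10559 and 6070, 3 of 7 called higher). They also overlapped for 4 CD4 T cell markers (90.6 and 91.2 against 149 and 73.3, 1 of 3 tested called higher). The same held for 4 erythroid markers (10.7 and 76.2 against 43.9 and 12.4, 0 of 3 called). No marker in these lists was at 0 in all libraries. Their part in the results was not tested, and in bulk samples fewer cells of a type and less RNA per cell cannot be told apart.

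Of the 49 remodelling and bromodomain genes tested, 1 was called between the genotypes. Arid1b, the DNA-binding subunit of one form of the BAF complex, was called higher in cTKO, and no member was called lower. The call rests largely on the larger cTKO library (normalized count 1753, against 388 to 585 in the others). It did not hold in every setting run. Called here means an adjusted p under 0.05 in the authors' deposited table, where 9.77% of the 12972 genes tested were higher and 3.61% lower. The members' shares, 2.04% and 0%, lay below both. At an unadjusted p under 0.05, 5 members were higher (Arid1b, Chd3, Baz1b, Arid3b and Arid1a) and 3 lower (Chd2, Arid4b and Ino80b), or 10.2% and 6.12% against 16.6% and 9.69% of all genes. The cTKO libraries were both above the WT libraries for 7 members (14.3% against 31.5% of 12761 tested genes with reads) and both below for 17 (34.7% against 28%), and the genotypes overlapped for 25.

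The median log2 fold change of the 49 members was 0.02 in the authors' deposited table, and 0.04 over all genes tested. Among genes with a mean of at least 200 it was 0.01 for 46 members and −0.13 for all genes. The members ran from −0.85 (Ino80b) to 1.41 (Arid1b), with 26 positive and 23 negative. In the authors' deposited table the 95% interval leaves out a doubling for 32 members and a halving for 30, and leaves out both for 14, so a change of 2-fold was within the error of most.

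**Figure D1:**
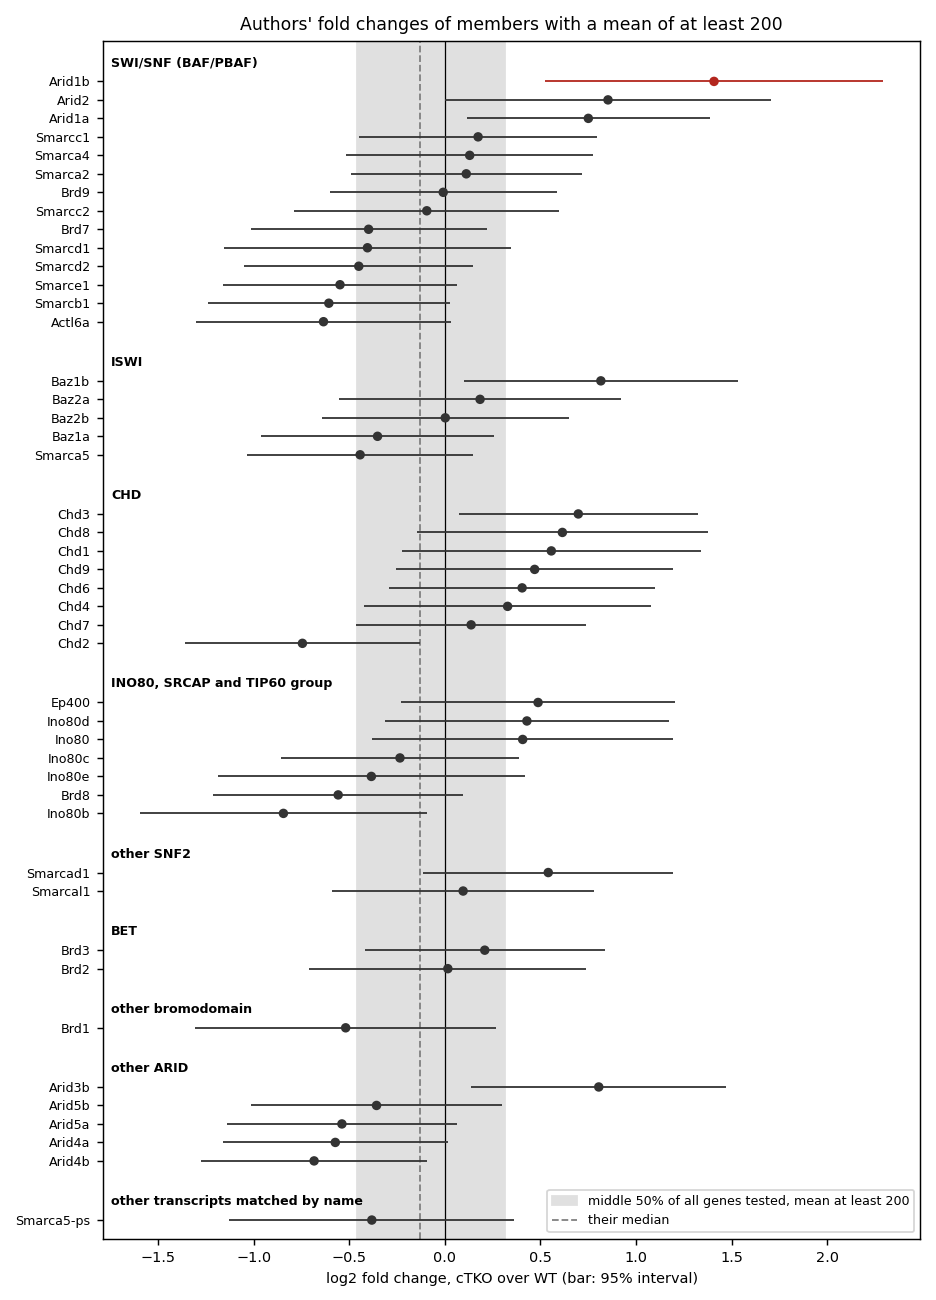
Log2 fold change of members with a mean of at least 200 (x axis, cTKO over WT, from the authors' deposited table), grouped by complex, with bars for 95% intervals; the grey band holds the middle 50% of all genes of that mean and the dashed line is their median of −0.13. Arid1b, in red, is the member that was called, and most bars cross 0.

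Members were read at very different levels. Exonic length covers all exons of a gene in the GENCODE basic set. Per kb of exonic length, the mean normalized count (reads divided by the library's size factor) was highest for the SWI/SNF subunit Smarcd2 (1169). Arid5a (1092), an AT-rich DNA-binding protein, and Actl6a (1046), the actin-related subunit of BAF, came next. Among ATPases, Smarca5 of ISWI led with 589, followed by Smarca2 with 313.5, Chd2 with 287, Smarca4 with 281, Chd7 with 275, Chd3 with 194, Chd4 with 158, Ep400 with 150.4 and Chd1 with 148. Smarcal1 (120), Smarcad1 (111), Chd8 (89.5), Chd6 (65.4), Chd9 (60.5) and Ino80 (32.6) were lower. In this order the libraries of neighbours overlapped from Smarca2 to Chd3, while Smarca5 lay above Smarca2 in every library (435 to 708 against 278 to 373). Smarcd3, a form of the SMARCD subunit known from heart and muscle, had 3 to 22 reads per library.

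**Figure D2:**
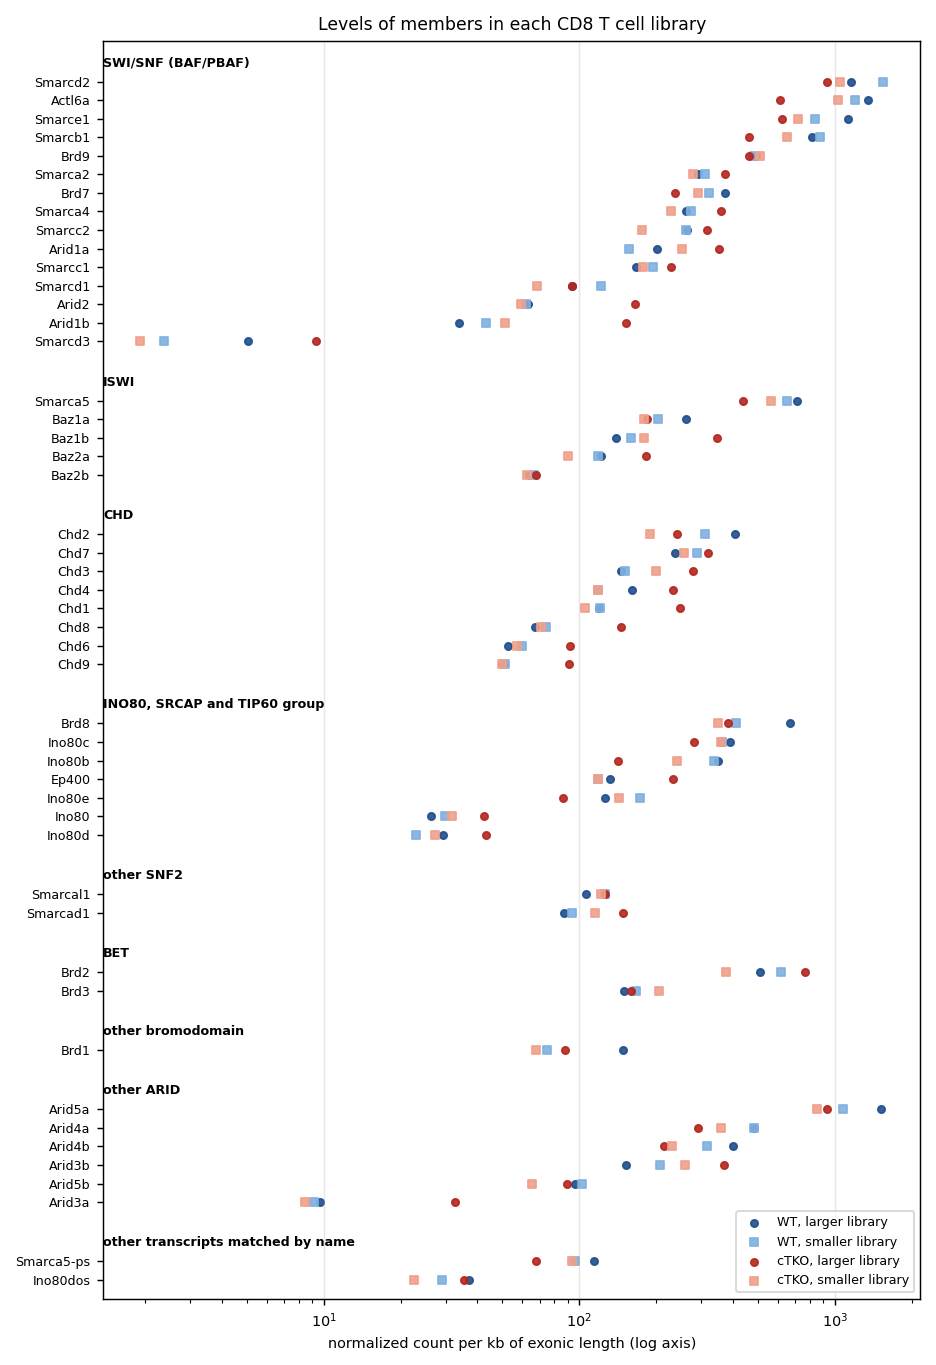
Normalized count per kb of exonic length (x axis, log scale) of members tested, 1 mark for each of the 4 CD8 T cell libraries, grouped by complex. Levels run from Smarcd3 to Smarcd2, and the larger cTKO library (dark red) is the highest library in 26 members.

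In SWI/SNF, 7 of 15 subunits had a positive and 8 a negative fold change. Arid1a, Arid1b and Arid2, with 8565, 11460 and 8776 exonic bases, stood at the positive end, and only Arid1b passed the test. The shorter Smarcb1, Actl6a and Smarce1 (1660, 2010 and 2919 bases) stood at the negative end. Set against the median of genes of like length, the first 3 came to 0.21, 0.87 and 0.31. The other 3 came to −0.26, −0.35 and −0.34. Of the 15 subunits, 5 were then positive and 10 negative. Arid1b (GRCm38.p6 chr17:4994297-5347656) had normalized counts of 388 and 494 in the larger and smaller WT library and 1753 and 585 in the larger and smaller cTKO library. Both cTKO libraries were above both WT libraries, but the larger cTKO library lay far from the other 3. It was 2.65-fold higher in the authors' deposited table (1.41 on the log2 scale, SE 0.45, adjusted p = 0.0191). With limma on the recovered reads Arid1b was not called (1.24, adjusted p = 0.106), nor without the larger (adjusted p = 0.419) or the smaller WT library (adjusted p = 0.119). Without the larger cTKO library the value from limma fell to 0.43 (adjusted p = 0.43), and without the smaller cTKO library it was 2.01 (adjusted p = 0.000162).

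Arid1a, its alternative in BAF, had normalized counts of 1733 and 1337 in WT and 3005 and 2159 in cTKO. The genotypes did not overlap, and the authors' deposited table gave 0.75 (SE 0.32, adjusted p = 0.108). Arid2, the ARID subunit of PBAF, had 553 and 544 in WT and 1457 and 522 in cTKO, with the smaller cTKO library the lowest of the 4. Of the ATPases that drive the complex, Smarca4 had 1674 and 1745 in WT and 2283 and 1455 in cTKO, and Smarca2 had 2138 and 2264 against 2722 and 2032. Both overlapped between genotypes, and the authors' deposited table gave 0.13 (SE 0.33, adjusted p = 0.843) for Smarca4 and 0.11 (SE 0.31, adjusted p = 0.856) for Smarca2. Among core subunits, Smarcb1, which anchors the complex to the nucleosome, had 1355 and 1449 in WT and 766 and 1076 in cTKO. Actl6a had 2708 and 2406 in WT and 1225 and 2069.6 in cTKO, and Smarce1, an HMG-box subunit, had 3299 and 2431 against 1815 and 2102. In all 3 the cTKO libraries lay below both WT libraries, and none was called. Smarcd2 and Brd7, the bromodomain subunit of PBAF, were also below in both cTKO libraries, while the scaffold subunits Smarcc1 and Smarcc2, Smarcd1 and Brd9 overlapped.

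**Figure D3:**
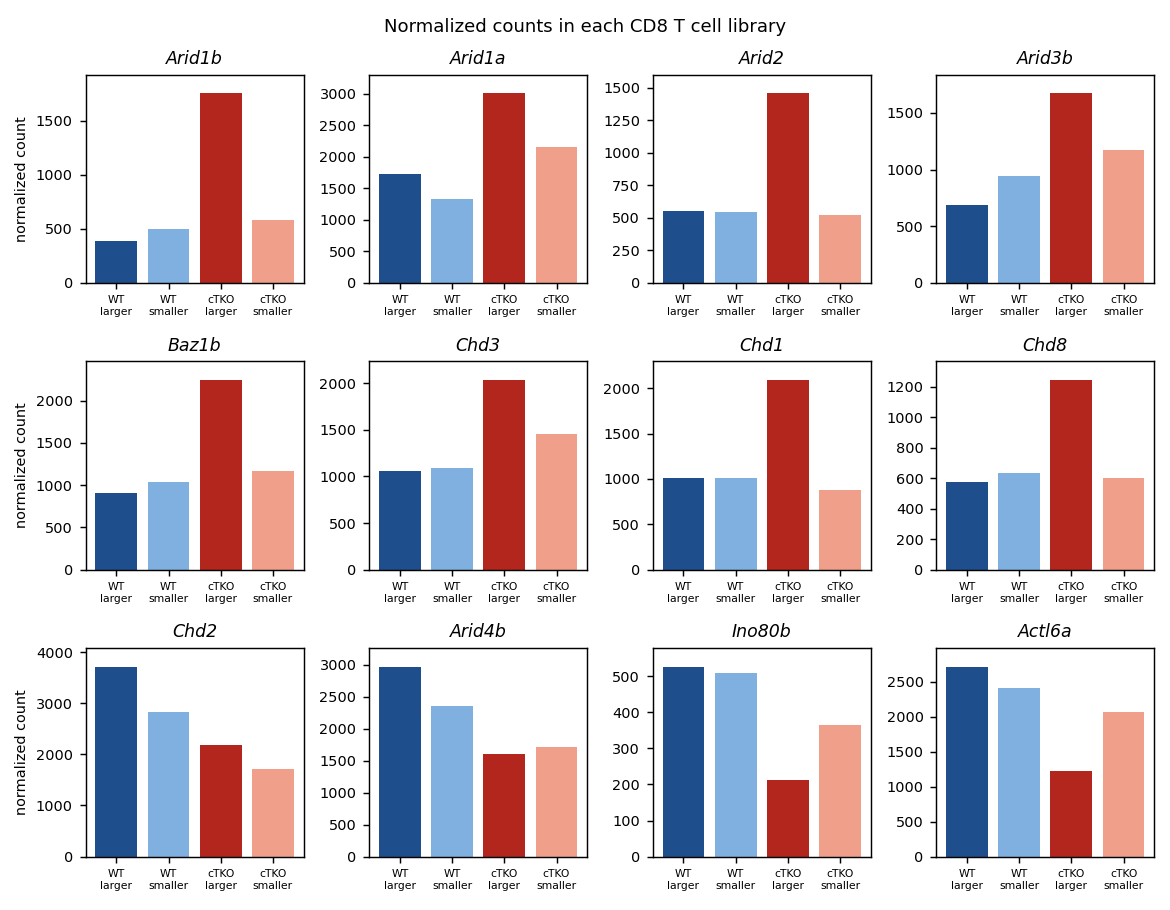
Normalized counts of 12 members (y axes start at 0) in the larger and smaller WT library (blue) and the larger and smaller cTKO library (red), 1 bar per library. For Arid1b the larger cTKO library stands at 1753 against 388 to 585 in the others, while Chd2 and Arid4b are lower in both cTKO libraries.

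Active promoters rich in CpG are known to hold little H1. The stretch before the start site of Smarcb1 is shown, and later those of Baz1b and Smarca5. They are examples from the members for which the genotypes did not overlap. Stretches of other such members are not shown, among them Brd7 (170 bases, 10 CpG), Arid5a (250 bases, 13 CpG) and Actl6a (211 bases, 16 CpG). The sequences come from RefSeq (GRCm38.p6), end before the first annotated base of the gene, and have each CpG in capitals. Smarcb1 is on the minus strand (chr10:75921618-75921864, 247 bases, 21 CpG):
Smarcb1: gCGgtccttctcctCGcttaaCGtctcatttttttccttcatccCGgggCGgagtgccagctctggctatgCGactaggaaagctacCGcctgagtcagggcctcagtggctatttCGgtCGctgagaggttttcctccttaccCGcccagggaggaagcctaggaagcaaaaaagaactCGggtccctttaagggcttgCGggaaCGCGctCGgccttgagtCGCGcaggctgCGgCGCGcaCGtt
In windows of 250 bases before the start, found for 40 members, the median was 20 CpG, against 15 in 10343 tested genes and 6 in all 27025 windows. At least 10 CpG were present in 82.5% of the members' windows, 71.7% of those of tested genes and 38.2% of all. The RNA data give no measure of binding or methylation there.

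ISWI members went in opposite directions, with no call. Smarca5, the ISWI ATPase of these cells, had normalized counts of 4329 and 3969.9 in WT and 2662 and 3441 in cTKO, below WT in both libraries. The authors' deposited table gave −0.44 (SE 0.30, adjusted p = 0.355). Its paralogue Smarca1, known from neurons, was at 0 reads except in the larger cTKO library, which had 10, and was not tested. Baz1b (WSTF), a partner of Smarca5 at replication sites, had 901 and 1036 in WT and 2239 and 1168 in cTKO, above WT in both. Baz1a (ACF1), the partner in the nucleosome-spacing ACF complex, had 1658 and 1289.8 in WT and 1173 and 1137 in cTKO, below WT in both. In the authors' deposited table the log2 fold change was 0.82 (SE 0.37, adjusted p = 0.125) for Baz1b and −0.35 (SE 0.31, adjusted p = 0.501) for Baz1a. Baz2a, a subunit of the nucleolar complex NoRC, and Baz2b overlapped between genotypes. Whether CpG content goes with the direction of a change was not tested. The stretches before the starts of Baz1b (plus strand, chr5:135187073-135187263, 191 bases, 16 CpG) and Smarca5 (minus strand, chr8:80739498-80739709, 212 bases, 28 CpG) are these:
Baz1b: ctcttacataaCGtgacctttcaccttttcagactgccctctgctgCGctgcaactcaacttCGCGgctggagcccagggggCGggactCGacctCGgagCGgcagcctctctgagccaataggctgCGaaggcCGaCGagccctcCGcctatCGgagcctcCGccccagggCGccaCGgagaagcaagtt
Smarca5: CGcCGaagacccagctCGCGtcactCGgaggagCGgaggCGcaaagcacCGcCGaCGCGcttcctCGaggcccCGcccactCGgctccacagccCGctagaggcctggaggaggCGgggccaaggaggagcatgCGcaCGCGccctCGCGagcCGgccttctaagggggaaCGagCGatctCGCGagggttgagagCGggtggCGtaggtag

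Of the 8 CHD genes tested, 7 had a positive fold change, with a median of 0.44 in the authors' deposited table, and Chd2 a negative one. None was called. CHD genes are long, and 930 of the 1248 genes of at least 6 kb with a mean of at least 200 were positive as well; set against the median of genes of like length, 4 of the 8 were positive and 4 negative. Chd2, which binds active genes and is linked to deposition of the histone variant H3.3, had normalized counts of 3708 and 2832 in WT and 2183 and 1717 in cTKO. Both cTKO libraries were below both WT libraries, and the authors' deposited table gave −0.75 (SE 0.31, adjusted p = 0.0964). Chd1, its closest relative, had 1005 and 1015 in WT and 2086 and 883 in cTKO, so that the cTKO libraries fell on either side of WT; the authors' deposited table gave 0.56 (SE 0.40, adjusted p = 0.384). 

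The NuRD ATPases Chd3 and Chd4 had an unequal spread. Chd3 had normalized counts of 1056 and 1092 in WT and 2032 and 1451 in cTKO, above WT in both libraries, for which the authors' deposited table gave 0.70 (SE 0.32, adjusted p = 0.134). Chd4, the main NuRD ATPase of most tissues, had 1079.5 and 799 in WT and 1562 and 795 in cTKO, for which the authors' deposited table gave 0.33 (SE 0.38, adjusted p = 0.630). Its smaller cTKO library was level with the smaller WT library. Chd8, which binds beta-catenin and is known from autism genetics, had 572 and 633 in WT and 1242 and 601 in cTKO, for which the authors' deposited table gave 0.61 (SE 0.39, adjusted p = 0.313). Chd7, the gene of CHARGE syndrome, had 2447 and 2988 in WT and 3319.5 and 2656 in cTKO, for which the authors' deposited table gave 0.14 (SE 0.31, adjusted p = 0.820). In both, and in Chd6 and Chd9, the larger cTKO library was the highest of the 4 and the smaller one lay within or just below the WT range. Chd5, a neuronal form, had 0 to 6 reads per library.

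In the INO80, SRCAP and TIP60 group, 3 of 7 members had a positive and 4 a negative fold change, with a median of −0.24 in the authors' deposited table. The ATPase Ino80 had normalized counts of 173 and 197 in WT and 279.9 and 209.9 in cTKO, above WT in both, for which the authors' deposited table gave 0.41 (SE 0.40, adjusted p = 0.557). Ep400, the ATPase of the TIP60 complex that places the variant H2A.Z, had 1665 and 1501 in WT and 2944 and 1493 in cTKO, for which the authors' deposited table gave 0.49 (SE 0.36, adjusted p = 0.411). The small subunit Ino80b had 525 and 508 in WT and 213 and 364 in cTKO, below WT in both, for which the authors' deposited table gave −0.85 (SE 0.38, adjusted p = 0.129). Ino80c and Brd8, the bromodomain subunit of TIP60, were also below WT in both cTKO libraries, and Ino80d and Ino80e overlapped.

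Of the BET genes, Brd2 and Brd3 were not called. Brd2, a reader of acetylated histones, had normalized counts of 2521 and 3061 in WT and 3780.0 and 1858 in cTKO, the highest and the lowest of the 4 libraries, and the authors' deposited table gave 0.02 (SE 0.37, adjusted p = 0.986). Brd3 had 833 and 928 in WT and 889.5 and 1147 in cTKO, and the authors' deposited table gave 0.21 (SE 0.32, adjusted p = 0.727). Brd1, a scaffold of a histone acetyltransferase complex, had 776 and 391 in WT and 460.5 and 354 in cTKO, and its WT libraries differed more from each other than the cTKO libraries did.

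Among the other ARID genes, Arid4a, Arid4b, Arid5a and Arid5b were below WT in both cTKO libraries, and Arid3b above. Arid4b, a subunit of the Sin3 histone deacetylase complex, had normalized counts of 2961 and 2361 in WT and 1599 and 1713 in cTKO. Arid4a, its paralogue in the same complex, had 2417 and 2420.2 in WT and 1459 and 1793 in cTKO. The authors' deposited table gave −0.68 (SE 0.30, adjusted p = 0.118) for Arid4b and −0.57 (SE 0.30, adjusted p = 0.205) for Arid4a. Arid5a, an RNA-binding protein that stabilises cytokine transcripts, had 9173 and 6506 in WT and 5623 and 5168 in cTKO. Arid3b had 691 and 939.9 in WT and 1672 and 1174 in cTKO. Arid3a, known for its action on immunoglobulin genes in B cells, had 52.7 and 49.7 in WT and 176 and 46.0 in cTKO, where the larger cTKO library stands alone. Of the 2 other SNF2 enzymes, Smarcad1 was above WT in both cTKO libraries (483 and 517 against 818 and 636) and Smarcal1, which restarts stalled replication forks, overlapped.

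Many of these genes come as paralogues that occupy one place in a complex, so their shares within a library were compared, from normalized counts per kb of exonic length. Smarca2 made up 52.7% and 53.1% of Smarca2 and Smarca4 in the larger and smaller WT library and 51.0% and 55.0% in the larger and smaller cTKO library. The division of the SWI/SNF ATPase thus differed little between libraries. Smarcd2 made up 90.0% to 93.7% of its trio, Arid5a 91.2% to 94.0% of its pair and Arid4b 39.1% to 45.2% of its pair. Shares differed without overlap in 2 of 12 sets. Chd2 made up 77.3% and 72.1% of Chd1 and Chd2 in WT and 49.2% and 64.3% in cTKO. Baz1b made up 34.7% and 44.0% of Baz1a and Baz1b in WT and 65.2% and 50.2% in cTKO. The smallest two-sided exact permutation p that 2 against 2 libraries allow is 0.333, so these shares have no test that could pass 0.05. A random order of the libraries would separate the genotypes at that same rate, and 2 of 12 sets is no larger a share. The share of Arid1b in Arid1a and Arid1b overlapped (14.3% and 21.6% in WT, 30.4% and 16.8% in cTKO).

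**Figure D4:**
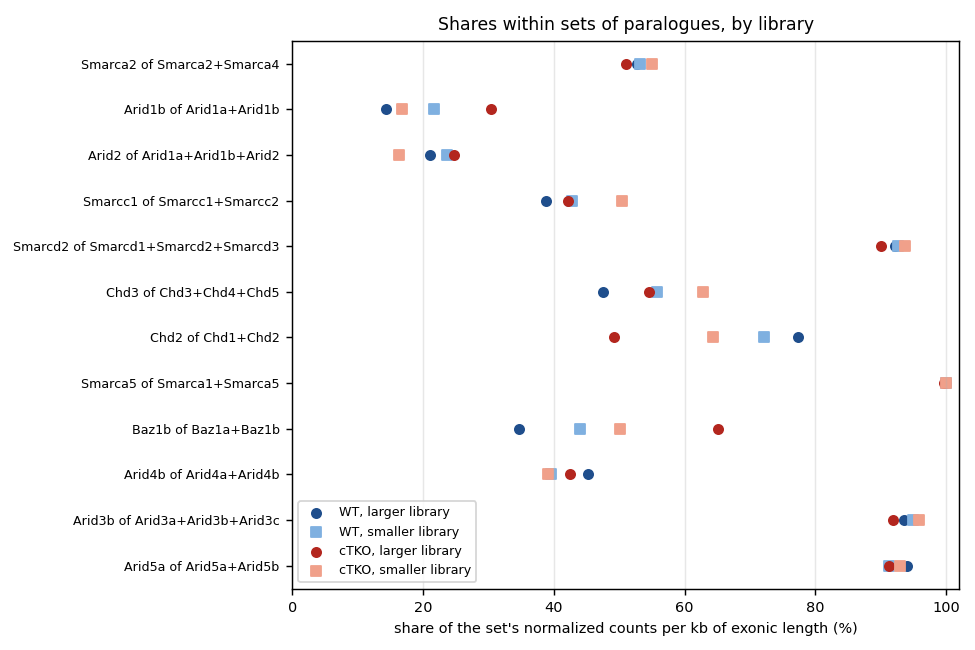
Share of the named gene in the summed normalized counts per kb of its paralogue set (x axis, percent), 1 mark for each of the 4 libraries. Chd2 lies lower and Baz1b higher in both cTKO libraries, and the other 10 sets overlap.

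Much of the spread among members lay in the larger cTKO library, and it followed gene length. In that library 6 of 46 members with a mean of at least 200 lay at least 2-fold above the smaller cTKO library (13% against 7.2% of 7999 genes), while no member differed 2-fold between the WT libraries (0% against 1.9%). Across the 46 members the log2 ratio of the larger to the smaller cTKO library had a Pearson r of 0.73 with exonic length, and across 7818 genes 0.64. Between the WT libraries r was 0.08 across members and 0.00 across genes (0.001). These values describe genes that share the same libraries and size factors, and genes are not replicates. The fold changes of the authors' deposited table followed length as well, with r of 0.58 for members and 0.28 for all genes. When the larger cTKO library was set against the larger WT library r was 0.62 for members, and for the smaller libraries it was 0.27 (0.41 and 0.04 for all genes).

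At a mean of at least 200, each of the 7 members under 3 kb had a negative fold change, as had 2621 of all 3548 genes of that length. Their median was −0.55 (all genes −0.30) in the authors' deposited table. The 13 members from 3 to 6 kb had a median of −0.38 (all genes −0.06). The 26 members of at least 6 kb had one of 0.26 with 19 positive (all genes 0.44, with 930 of 1248 positive). In each class the members' median lay below that of all genes. The members are long genes, with a median exonic length of 6368 bases against 3299 for all genes with a mean of at least 200. In the larger libraries and the smaller libraries taken as pairs, 9 members were higher in cTKO in both (19.6% against 28.3% of genes), 19 lower in both (41.3% against 42.4%) and 18 went in opposite directions (39.1% against 29.3%). The part of RNA quality or library making in the length pattern was not tested.

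**Figure D5:**
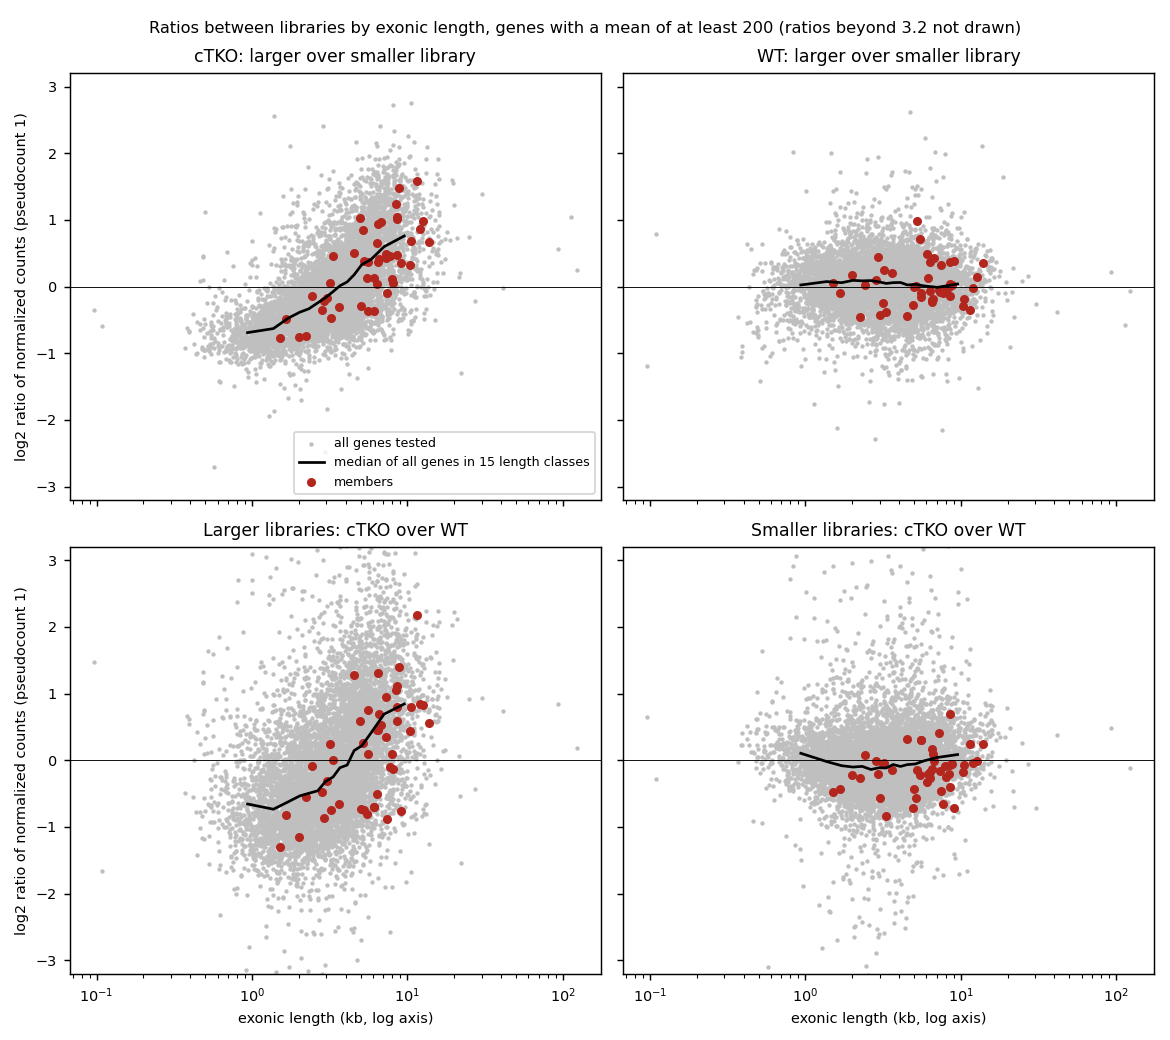
Log2 ratio of normalized counts between libraries (y axes, pseudocount 1) against exonic length (x axes, kb, log scale) for genes with a mean of at least 200; members in red, all genes in grey, and the line is the median of all genes in 15 length classes. The ratio of the cTKO libraries rises with length, while the ratio of the WT libraries and that of the smaller libraries of the genotypes stay near 0.

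Of the 26 members of at least 6 kb, 7 had a negative fold change, a share near that of all genes of that length (318 of 1248). All 7 were lower in cTKO in the larger and in the smaller pair of libraries. The pairs are the same libraries that gave the fold changes, so this is no separate test. Arid5a (−0.71 and −0.33 on the log2 scale), Smarca5 (−0.70 and −0.21), Baz1a (−0.50 and −0.18) and Arid5b (−0.10 and −0.66) were among these 7 members. Chd2 and Arid4b had the lowest fold changes of these. Their exonic lengths are 9085 and 7437 bases, yet the log2 ratio of cTKO to WT for Chd2 was −0.76 between the larger and −0.72 between the smaller libraries, and for Arid4b −0.89 and −0.46. When the fold changes of the authors' deposited table were set against the median of genes in the same of 10 length classes, they came to −1.29 (adjusted p = 0.000859) and −1.23 (adjusted p = 0.00101). Arid5b (−0.90, adjusted p = 0.0565) and Arid5a (−0.82, adjusted p = 0.0602) came next and did not pass. Chd2 and Arid4b were then the 2 members called, both lower, beside 3.1% of genes called lower and 9.44% higher, and Arid1b was no longer called (0.87, adjusted p = 0.225). This setting was chosen after the data were seen. Without the larger cTKO library, limma gave −0.91 (adjusted p = 0.0509) for Chd2 and −0.62 (adjusted p = 0.188) for Arid4b, so neither was called there.

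Partner genes of the same complexes, whose symbols the naming rule does not reach, were taken as lists of 98 genes. Of the 92 tested, 4 were called higher and 3 lower (9.77% and 3.61% of all genes tested), with a median of 0.11 in the authors' deposited table. These counts are no larger than the share over all genes gives. Bicral, a subunit of the non-canonical BAF complex, had normalized counts of 120.2 and 142 in WT and 730.5 and 364 in cTKO, for which the authors' deposited table gave 2.07 (SE 0.42, adjusted p = 3.32e-05). Ep300, a bromodomain acetyltransferase, had 719 and 734 in WT and 2516 and 981 in cTKO, for which the authors' deposited table gave 1.27 (SE 0.41, adjusted p = 0.0213). Epc1 of the TIP60 complex (0.94) and Actb, an actin that is also a BAF subunit (1.83), were the other 2 called higher in the authors' deposited table. Mbd2, which ties NuRD to methylated DNA, had 3396 and 1045 in WT, a wide spread, and 571 and 855 in cTKO, for which the authors' deposited table gave −1.64 (SE 0.46, adjusted p = 0.00543). Actr5 of INO80 (−0.97) and the remodeller Chd1l (−0.92) were also called lower in the authors' deposited table. By list, 2 of 12 SWI/SNF partners were called, 0 of 7 ISWI partners, 1 of 10 NuRD partners, 2 of 22 INO80, SRCAP and TIP60 partners, 1 of 23 other bromodomain genes, 1 of 13 other SNF2 enzymes and 0 of 5 other ARID genes, where 13.4% of all genes were called in either direction.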

How the data were processed

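The authors compared polyadenylated RNA of CD8 T cells from 2 WT and 2 cTKO mice, with STAR and DESeq2 and the builds mm10 and GRCm38.p6, per the submitters' processing notes. Versions, annotation, counting and strand settings were not given in the sources used here. Members and gene lists were chosen with earlier results of these data known. Every member is named or counted, and full values are given for called members, for the catalytic ATPases Smarca2, Smarca4, Smarca5, Chd1 to Chd4, Chd7, Chd8, Ino80 and Ep400 (Smarca1 by its reads) and for BET genes, except 1 member that is counted but not reported here.

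The mean normalized count over the 4 libraries is, per the file headers, a signal that the authors made by dividing read counts by size factors. Fold changes and standard errors (log2 scale), the test score, p-value and adjusted p-value are used as deposited by the authors. The score equals the fold change over its error within 2.17e-08. Genes with a mean of 3.43 or less have no adjusted p. No header says which genotype is the numerator of a fold change. Positive values were taken as higher in cTKO, since the H1 genes Hist1h1c, Hist1h1d and Hist1h1e had negative ones, and the opposite reading would turn every direction.

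Whole reads per library were recovered by finding the 4 whole numbers that give the deposited mean, fold change and standard error (allowed error 1e-09, log2). This gave 1 solution for 99.93% of genes with a mean below 10000. In simulated reads every gene with 1 solution was right. Size factors were 1.214423 and 0.866028 (WT) and 1.207396 and 0.804969 (cTKO). The recovery itself ties a library to a genotype, and Xist reads tie it to a sex. Normalized counts are reads over size factors, divided by the bases of all exons in the GENCODE basic set for values per kb. RefSeq records matched 24383 of 24421 genes. limma 3.58.1 (R 4.3.3) with voom weights, on genes with a mean of at least 10, served as an alternative and was tested on simulated data.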

Additional observations from a re-analysis of the deposited data

How the results depend on the processing

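The count of 1 member higher and 0 lower was the same after adjustment over every gene with a p-value, after re-centring on genes with a mean of at least 100 (a shift of −0.10) and in limma without a filter on the mean. No member was called higher by limma with the filter (0) or with library totals in place of size factors (0), and re-centring within length classes gave 0 higher and 2 lower. Leaving out 1 library at a time gave 0 to 14 higher and 0 to 5 lower, the most without the smaller cTKO library (22% and 16.4% of all genes). In these fits the lone library of a genotype is assumed to vary like the others. The median of the members stayed between −0.18 and 0.12 in all settings run.

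With the larger and smaller libraries paired as a block, limma called Arid1b alone (1 higher, 0 lower, adjusted p = 0.0102). The pairing rests on library size and sex. Arid1b was positive in every setting, with adjusted p of 0.106 in limma, 0.118 with library totals, 0.225 within length classes and 0.12 to 0.43 without 1 library, apart from the smaller cTKO library (0.000162).

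Of the genes given in full, 8 changed sign in at least 1 setting, among them Chd1 (0.56), Ep400 (0.49) and Chd4 (0.33). Re-centring within length classes gave −0.07 for Brd2 (−0.0667), −0.07 for Brd3 (−0.0686), −0.40 for Chd7, −0.054 for Ep400, −0.43 for Smarca2 and −0.15 for Smarca4. Brd2 was −0.057 in limma, −0.050 without a filter and −0.038 with the block. Without 1 library, Brd2 ran from −0.58 to 0.44, Chd1 from −0.19 to 1.05, Chd4 from −0.23 to 0.74, Chd7 from −0.031 to 0.29, Ep400 from −0.081 to 0.90, Smarca2 from −0.12 to 0.31 and Smarca4 from −0.23 to 0.42; the low end was that without the larger cTKO library. Chd7 was also below 0 without the larger WT library (−0.0029). The cause was not tested. Fits by edgeR, with its TMM scaling, were not run, because the table holds no count columns, and limma was chosen in their place after the data were seen.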
